A study of Arabidopsis thaliana with 8 samples.

Results

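Formins are proteins that start actin filaments and lengthen them. A dimer of their FH2 domain holds the growing filament end, and a proline-rich stretch before it recruits profilin bound to actin. Land plants have a large formin family in 2 classes: class I formins typically carry a segment that anchors them in the plasma membrane, which class II formins typically lack. Plant formins are known for roles in cell expansion, cell division and the tip growth of root hairs and pollen tubes.

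The data describe a set list of 9 Arabidopsis formin genes, matched by locus tag and each with a listed probe set, among 16554 genes measured. The class I genes were AT2G43800, AT5G48360, AT3G07540, AT3G05470 and AT1G59910, and the class II genes were AT1G42980, AT5G58160, AT3G32400 and AT2G25050. The annotation used here names these genes by their locus only, so the class of each follows the general classification of the family and not a column of the data. All 9 loci matched, with 10 probe sets in all, since AT2G25050 had 2.

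RNA came from pools of about 120 whole seedlings of the Columbia background, 7 days old, on Affymetrix arrays, with 2 arrays in each of 4 groups. On solid MS medium, under 16 h light and 8 h dark, grew the fh1-1 mutant of FH1 (AT3G25500), a membrane-anchored formin, and its wild-type sister line from a backcross. In the other 2 groups, wild-type seedlings of the same sister line were moved after 6 days on solid medium to shaken liquid MS medium for 1 day in continuous light, either without SMIFH2 (the liquid control; its solvent is not given in the sources used here) or with 20 uM SMIFH2, a small molecule that inhibits the FH2 domain. The comparisons ask whether other formin genes are expressed differently when FH1 is mutated or FH2 domains are inhibited.

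Values are log2 expression, on which a step of 1 is a doubling, and were not compared between genes, because probe sets differ in brightness. Array medians lay between 3.89 and 3.96, and arrays of the same group correlated at r = 0.977 to 0.986 across genes. FH1 itself had no listed probe set with a gene name, so the mutant label was not checked against its transcript. With whole seedlings, fewer cells of a type and less RNA per cell cannot be told apart. Shoot and root markers differed between the groups. The log2 levels of the 8 measured of 12 shoot markers summed to 53.0 to 53.5 on wild-type arrays on solid medium, 62.2 to 63.5 in fh1-1, 57.8 to 58.5 in the liquid control and 62.5 to 63.6 with SMIFH2. Those of the 7 measured of 13 root markers summed to 56.2 to 57.5, 54.5 to 54.9, 50.7 to 50.9 and 54.8 in the same order, and 0 markers of either list lay below the 25th percentile of an array (2.13 to 2.24). The 4 measured of 10 pollen markers summed to 9.57 to 10.6, 9.15 to 9.16, 9.81 to 11.6 and 8.64 to 10.1, with 2 or 3 of them below that percentile on every array, among them VGD1, a pectin methylesterase of pollen, at group means of 1.64 to 1.74. The part of tissue makeup in the results was not tested.

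In fh1-1 on solid medium, class I genes AT2G43800 and AT5G48360 rose and class II gene AT2G25050 fell. These were 3 of the 9 members (33.3%), while 22.6% of all 16554 genes passed the same test in limma at an adjusted p under 0.05. By direction, 10.9% of all genes were called higher and 11.7% lower. Beside them, 6 of the 8 measured shoot markers rose, and of the 7 measured root markers 1 rose and 3 fell. The shoot markers YAB2 (0.36) and YAB3 (0.03) did not pass.

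AT2G43800 stood at 4.44 and 3.86 on the 2 wild-type arrays on solid medium and at 5.56 and 5.12 on the fh1-1 arrays. It stood at 4.74 and 5.07 in the liquid control and at 5.29 and 5.23 with SMIFH2. Both wild-type arrays on solid medium were thus the lowest of the 8, and the liquid control lay between them and the other 4 arrays. Against wild type on solid medium it rose by 1.19 ± 0.23 in fh1-1 (SE, n = 2 arrays per group), which is 2.29-fold (adjusted p = 0.0043). That change was larger in size than those of 94.1% of the genes tested.

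AT5G48360 followed a like order. On solid medium it stood at 4.08 and 3.58 in wild type and at 4.70 and 4.95 in fh1-1. In liquid medium it stood at 3.84 and 4.59 without SMIFH2 and at 4.81 and 4.62 with it. The liquid control arrays differed from each other by 0.75, the widest gap within a group for any of the 9 genes, and overlapped with wild type on solid medium. Its rise in fh1-1 was 1.00 ± 0.26 (2.00-fold, adjusted p = 0.019). Leaving out solid-medium wild-type array 2 gave an adjusted p of 0.14, leaving out fh1-1 array 1 or 2 gave 0.056 and 0.12, and testing every probe set gave 0.063. Over all 16 alternatives it lay between 0.0068 and 0.14.

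AT2G25050 moved the other way. It stood at 5.52 and 5.91 in wild type on solid medium and at 5.11 and 5.03 in fh1-1. In liquid medium it stood at 5.87 and 5.80 without SMIFH2 and at 4.97 and 5.12 with it. All 4 arrays of untreated wild type were above all 4 arrays of fh1-1 and SMIFH2. The share of all genes split in this way was not computed. In limma, 1741 of the 16554 genes passed in both the fh1-1 and the SMIFH2 comparison, as did 1 of the 9 members, AT2G25050. It fell by 0.65 on the log2 scale in fh1-1 (SE 0.17, adjusted p = 0.021). Leaving out solid-medium wild-type array 2 gave -0.45 (adjusted p = 0.15), and leaving out fh1-1 array 1 or 2 gave an adjusted p of 0.082 and 0.12. The alternatives together spanned 0.014 to 0.15.

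The 2 probe sets of AT2G25050 disagreed in size. The one above was taken because its mean over the arrays was higher. The other stood at 2.71 and 2.87 in wild type on solid medium, 2.68 and 2.79 in fh1-1, 2.82 and 3.03 in the liquid control and 2.64 and 2.68 with SMIFH2. In a fit of every probe set its difference in fh1-1 was -0.05 (95% interval -0.41 to 0.30) and with SMIFH2 -0.27 (-0.62 to 0.09), and neither passed. With the mean of both probe sets the change in fh1-1 was -0.35 at an adjusted p of 0.14.

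**Figure D1:**
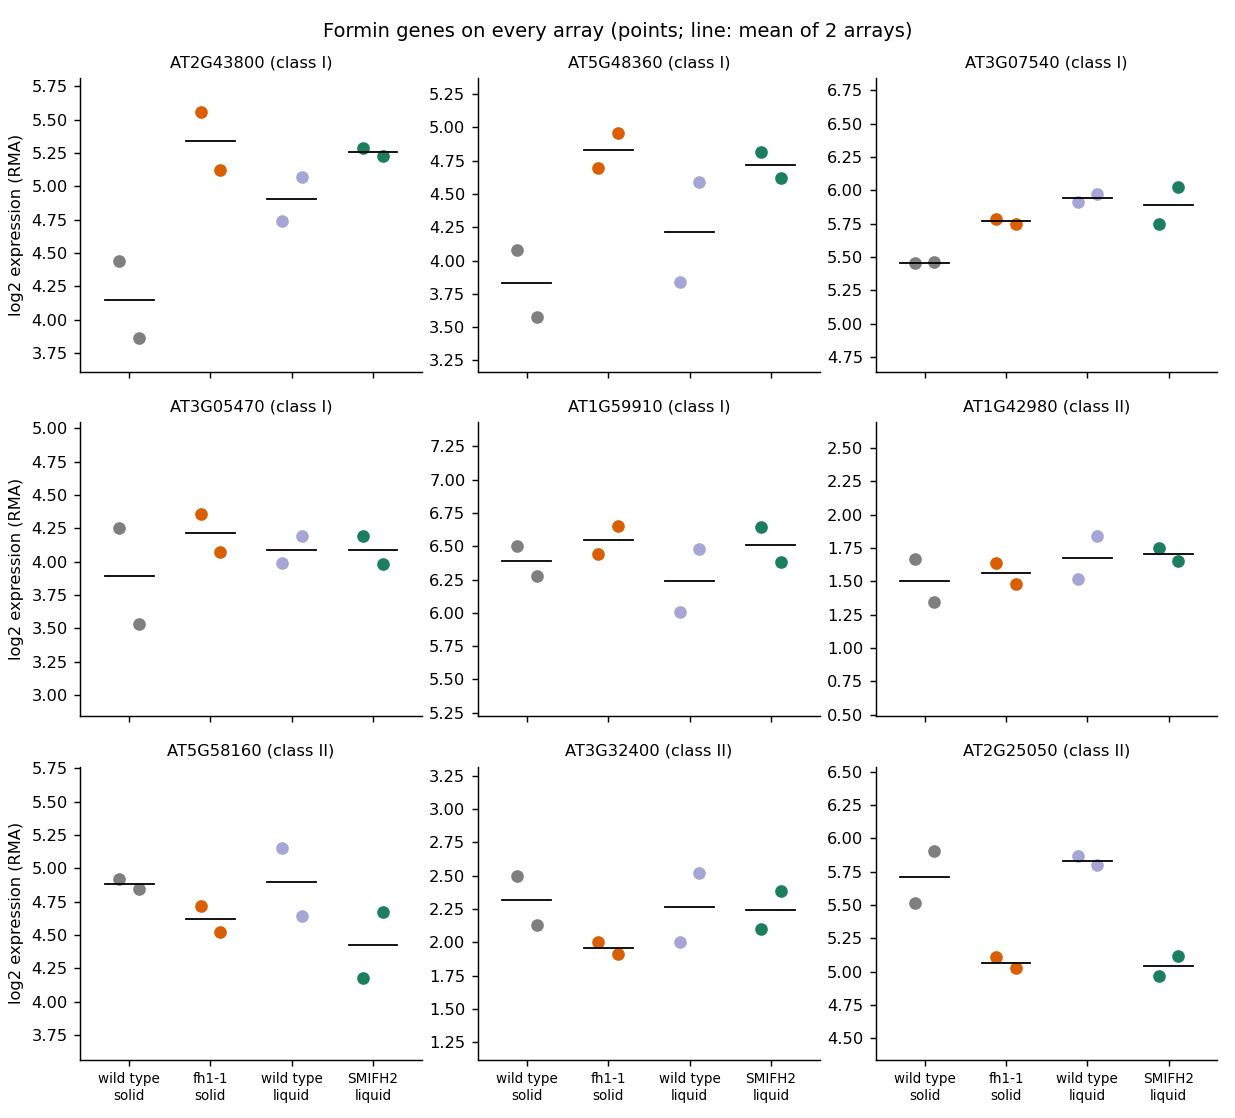
Log2 expression (vertical axis, with the same span in every panel) of the 9 formin genes on each array, by group; points are arrays and lines are means of 2 arrays. The means of AT2G43800 and AT5G48360 are lowest in wild type on solid medium. For AT5G48360, liquid-control array 1 (3.84) lies below solid-medium wild-type array 1 (4.08). AT2G25050, drawn from the brighter of its 2 probe sets, is at 4.97 to 5.12 in fh1-1 and SMIFH2 and at 5.52 to 5.91 in the other 4 arrays.

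The other 3 class I genes did not pass in fh1-1. AT3G07540 stood at 5.45 and 5.46 in wild type and at 5.78 and 5.75 in fh1-1, a difference of 0.31 ± 0.15 (adjusted p = 0.19) with arrays that did not overlap. AT3G05470 differed by 0.32 (95% interval -0.20 to 0.84), and its wild-type arrays, at 4.25 and 3.53, were the farthest apart in that group. AT1G59910, at 6.00 to 6.65 over all 8 arrays, differed by 0.16 (-0.28 to 0.60). All 5 class I differences were above 0, as were 7434 of all 16554 genes. The class I median was 0.32, with a range from 0.16 to 1.19, against a median of -0.05 over all genes. Leaving out solid-medium wild-type array 2 turned AT3G05470 to -0.04 and gave 0.05 for AT1G59910, so the shared sign rested on that array.

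Among the class II genes beside AT2G25050, AT5G58160 stood at 4.92 and 4.84 in wild type and at 4.72 and 4.53 in fh1-1, a difference of -0.26 (95% interval -0.75 to 0.22). AT3G32400 differed by -0.36 (-0.82 to 0.11) and lay below the 25th percentile on 5 of the 8 arrays. AT1G42980, at 1.34 to 1.84, lay below that percentile on all 8 arrays and differed by 0.06 (-0.34 to 0.45), so a level above background was not shown for it. The class II median was -0.31, with 1 of 4 values above 0, against 7434 of all 16554 genes.

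Arrays of wild type and fh1-1 on solid medium did not overlap for 6 of the 9 genes, against 60.9% of all genes. Solid-medium wild-type array 2 was the lowest of the 8 for 4 of the 9 genes (AT2G43800, AT5G48360, AT3G05470 and AT1G42980) and the highest for AT2G25050. Over all genes this array was the lowest for 14.0% and the highest for 18.5%. Set against each gene's mean over the 8 arrays, the class I genes averaged -0.17 on array 1 and -0.57 on array 2 of that group, and 0.25 and 0.20 in fh1-1. On arrays 1 and 2 they averaged -0.22 and 0.15 in the liquid control, and 0.22 and 0.13 with SMIFH2.

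**Figure D2:**
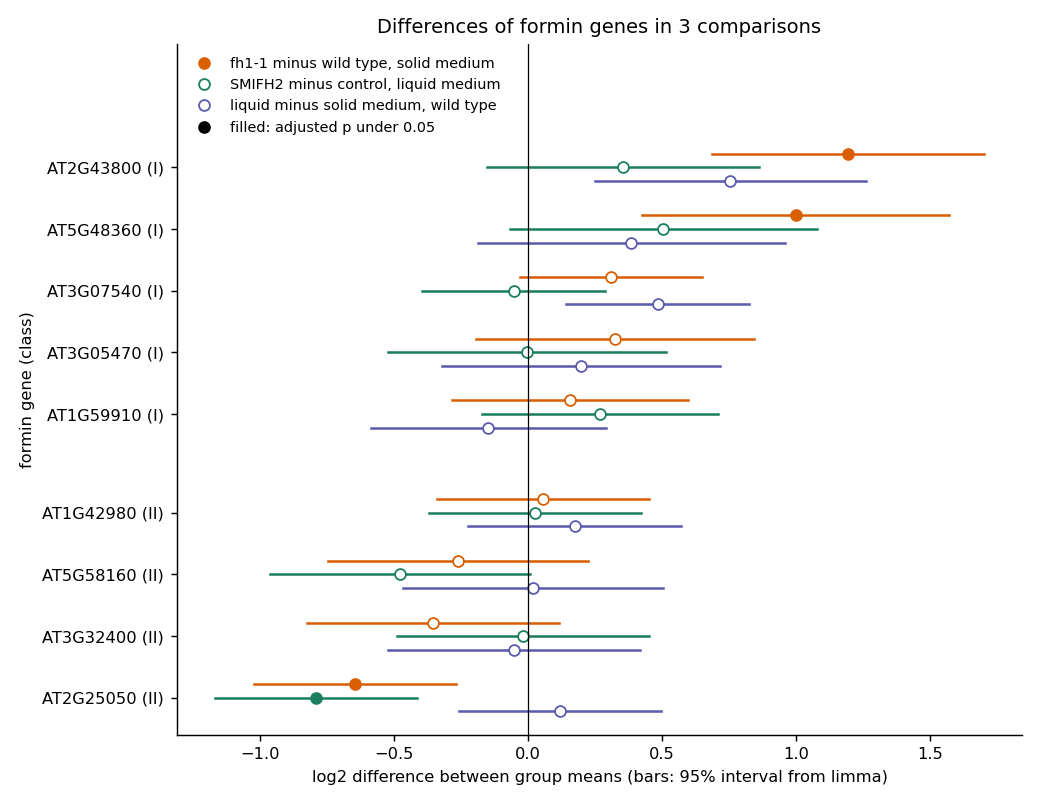
Log2 differences between group means (horizontal axis) with 95% intervals from limma, for the 9 formin genes by class in 3 comparisons; filled points passed at an adjusted p under 0.05. In fh1-1 all 5 class I values lie above 0 and 3 of 4 class II values below it, and 6 of the 9 intervals include 0. Of all 16554 genes, 7434 lie above 0 in fh1-1.

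With 20 uM SMIFH2 in liquid medium, AT2G25050 was the only one of the 9 genes that passed, against 14.9% of all genes (7.78% higher, 7.07% lower). It fell by 0.79 on the log2 scale (SE 0.17, 95% interval -1.17 to -0.41, adjusted p = 0.012), more in size than 90.5% of the genes. It missed the threshold when liquid-control array 1 (adjusted p = 0.057) or SMIFH2 array 1 (0.084) was left out, and the alternatives spanned 0.0056 to 0.084. Of the same 8 shoot and 7 root markers, 4 of each rose with SMIFH2. The 4 shoot markers were RCA, SBPASE, PRK and HPR, while SPCH (0.51), FMA (0.06), YAB3 (-0.21) and YAB2 (-0.34) did not pass. The class II gene AT5G58160 stood at 5.15 and 4.65 in the control and at 4.17 and 4.67 with SMIFH2, a difference of -0.48 (-0.96 to 0.01, adjusted p = 0.19). Leaving out liquid-control array 1 or 2 gave -0.22 and -0.73 for it, and leaving out SMIFH2 array 1 or 2 gave -0.23 and -0.73.

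The class I genes that rose in fh1-1 did not pass with SMIFH2. AT2G43800 differed by 0.35 (95% interval -0.15 to 0.86, adjusted p = 0.36) and AT5G48360 by 0.50 (-0.07 to 1.08, adjusted p = 0.24), in each case with arrays that did not overlap. These were, with AT2G25050, 3 of the 9 genes whose arrays were apart, against 53.8% of all genes. AT2G43800 gave 0.19 when liquid-control array 1 was left out and 0.52 when array 2 was. AT5G48360 passed when liquid-control array 2 was left out, at 0.88 (adjusted p = 0.045), and gave 0.13 when array 1 was left out (adjusted p = 0.81). AT1G59910 differed by 0.27 (-0.17 to 0.71), AT3G07540 by -0.05, AT3G05470 by -0.0042, AT1G42980 by 0.03 and AT3G32400 by -0.02. The class I median was 0.27 and the class II median -0.25, with -0.02 over all genes.

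The fh1-1 and SMIFH2 effects share no arrays, and the difference between them was tested directly. For 0 of the 9 genes did it pass in limma, against 0.743% of all genes, and 1 of the 9 was under an unadjusted p of 0.05, against 12.5% of all genes. This was AT2G43800, whose SMIFH2 effect was lower than its fh1-1 effect by 0.84 (95% interval -1.56 to -0.12, adjusted p = 0.32). For AT5G48360 the difference of effects was -0.49 (-1.30 to 0.32), and for AT2G25050 it was -0.15 (-0.68 to 0.39). The 2 effects had the same sign in 7 of the 9 genes (77.8%), and in 69.0% of all genes.

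**Figure D3:**
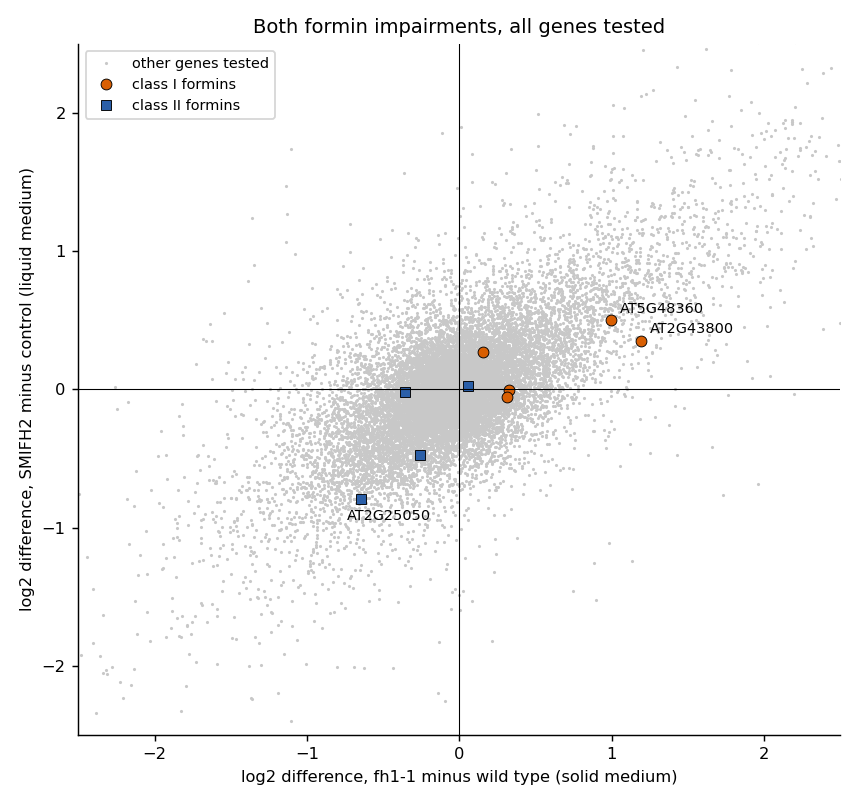
Log2 difference with SMIFH2 in liquid medium (vertical axis) against that in fh1-1 on solid medium (horizontal axis) for the 16554 genes tested, with class I formins as circles and class II formins as squares; 150 genes lie outside the axis limits of 2.5. AT2G43800 (1.19 and 0.35) and AT5G48360 (1.00 and 0.50) lie to the right, and AT2G25050 (-0.65 and -0.79) lies at the lower left.

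Between liquid and solid medium in wild type, 0 of the 9 genes passed the threshold in limma, against 4.71% of all genes. Liquid cultures were also moved, shaken and kept in continuous light, so an effect of the medium itself cannot be told apart from these. Under an unadjusted p of 0.05, as were 18.5% of all genes, were AT2G43800 and AT3G07540, which are also the 2 of the 9 genes whose arrays in liquid and on solid medium did not overlap, against 46.0% of all genes. AT2G43800 was 0.75 ± 0.23 higher in liquid (adjusted p = 0.099), and AT3G07540 was 0.48 ± 0.15 higher (adjusted p = 0.12), from 5.45 and 5.46 on solid medium to 5.91 and 5.97 in liquid. This comparison shares its wild-type arrays on solid medium with the fh1-1 comparison and its liquid control arrays with the SMIFH2 comparison. The remaining differences ran from -0.15 for AT1G59910 to 0.38 for AT5G48360.

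SMIFH2 in liquid medium and fh1-1 on solid medium, which differ in genotype, medium and light, were also set against each other. For 0 of the 9 genes did they differ past the threshold in limma, against 0.145% of all genes, and 0 were under an unadjusted p of 0.05, against 7.26% of all genes. The differences were 0.03 to 0.28 in size, and the arrays were apart for 2 of the 9 genes (AT1G42980 and AT3G32400), against 40.6% of all genes. The 95% intervals of single genes reached from -0.68 to 0.75, so equal levels were not shown.

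The order of the group means for AT2G43800 and AT5G48360 was wild type on solid medium, liquid control, SMIFH2 and fh1-1, and no neighbours in that order differed past the threshold. Groups farther apart in that order did differ: SMIFH2 was above wild type on solid medium by 1.11 ± 0.23 for AT2G43800 (adjusted p = 0.0065) and by 0.89 ± 0.26 for AT5G48360 (adjusted p = 0.033), a comparison in which 21.8% of all genes passed. Leaving out solid-medium wild-type array 2 gave adjusted p values of 0.055 and 0.21 for these. That of AT5G48360 was also 0.16 and 0.085 when SMIFH2 array 1 or 2 was left out, and 0.090 over every probe set. For AT2G25050 the order was SMIFH2, fh1-1, wild type on solid medium and liquid control, and only the step from 5.07 in fh1-1 to 5.71 in wild type passed. It was lower in fh1-1 than in the liquid control by 0.77 on the log2 scale as well (adjusted p = 0.012, 17.5% of all genes), a call lost when fh1-1 array 1 (0.059), fh1-1 array 2 (0.082) or liquid-control array 1 (0.056) was left out, or when its probe sets were averaged (0.059). With SMIFH2 it was lower than in wild type on solid medium by 0.67 (adjusted p = 0.018). That call was lost when solid-medium wild-type array 2 (0.13), SMIFH2 array 1 (0.11) or SMIFH2 array 2 (0.052) was left out, or with averaged probe sets (0.094).

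For the other 6 genes no neighbouring groups differed past the threshold. A test for any difference among the 4 groups passed for AT2G43800 (adjusted p = 0.011), AT5G48360 (0.044) and AT2G25050 (0.0088), as for 25.2% of all genes. For AT3G07540 it gave 0.12. The ranges of the group means were 0.48 for AT3G07540 and AT5G58160, 0.36 for AT3G32400, 0.32 for AT3G05470, 0.30 for AT1G59910 and 0.20 for AT1G42980. In each of these except AT3G07540, the widest gap between 2 arrays of a group was larger than that range.

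Over the 8 arrays AT2G43800 and AT5G48360 correlated at r = 0.88, and AT2G25050 at -0.73 and -0.84 with them. Within class I, 9 of 10 pairs had r above 0 (median 0.56), within class II 4 of 6 (median 0.19), and between the classes 8 of 20 (median -0.14). All 8 of these involve AT1G42980 or AT3G32400, the genes at low levels. The 10 pairs of class I genes with AT5G58160 or AT2G25050 had r from -0.84 to -0.12. The pairs were split in this way after their values were seen, and no share over all gene pairs was computed. The correlated points share 4 groups and the same arrays. Genes most like AT2G43800 over the 8 arrays were AT5G40450 (r = 0.98), PAM68 (0.98), a factor of photosystem II assembly, and SPCH (0.98), a regulator of the stomatal lineage that is also one of the shoot markers. AT3G01710, AT1G51560 and AT4G30010 were most like AT5G48360, and AT3G16330, AT4G19860 and AT1G22870 most like AT2G25050, all at r from 0.98 to 0.99. Of 16553 genes, 318, 304 and 622 had r over 0.9 with AT2G43800, AT5G48360 and AT2G25050.

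Measured genes beside these 3 loci on the chromosome did not pass in fh1-1, where 22.6% of all genes passed. LSM6B, beside AT2G43800, differed by -0.08 ± 0.17 in fh1-1, and AT5G48350 and AT5G48370, on either side of AT5G48360, by -0.04 ± 0.25 and 0.03 ± 0.19. Neither neighbour of AT2G25050 was measured. Beside the other members, BZIP60, next to AT1G42980, differed by -0.74 in fh1-1 (limma adjusted p = 0.0065). With SMIFH2, where 14.9% of all genes passed, it differed by -0.85 (adjusted p = 0.0050). AT5G58150, next to AT5G58160, differed by 0.58 with SMIFH2 (adjusted p = 0.034). The remaining measured neighbours passed in neither comparison. The neighbours were looked up after the values were seen.

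Of 12 further loci listed as formins, FH1 among them, only AT5G07650 and AT5G07760 were measured. Neither is on the list of 9 or in the class medians above. Like the 9, they are not named as formins in the annotation used here. AT5G07650 was lower in the liquid control (3.58 and 4.40) than in wild type on solid medium (5.28 and 5.36). It fell by 1.34 on the log2 scale (SE 0.31, adjusted p = 0.038), and when liquid-control array 1 was left out by 0.93 (adjusted p = 0.16). The call was also lost without solid-medium wild-type array 1 or 2 (0.12 and 0.17), without either SMIFH2 array (0.065 each), in a fit of only these 4 arrays (0.058) and with every probe set (0.13), and the alternatives spanned 0.014 to 0.17. In fh1-1 it differed by -0.32 (95% interval -1.01 to 0.37) and with SMIFH2 by 0.45 (-0.24 to 1.14). AT5G07760 did not pass, at -0.18 in fh1-1 (-0.90 to 0.55) and -0.66 with SMIFH2 (-1.38 to 0.07).

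Other genes of the actin system were thinly covered by listed probe sets. Profilins, which deliver actin to formins, had 0 of 5 listed members measured. Of the ARP2/3 complex and its SCAR regulators, the other main system that starts actin filaments, 5 of 18 were measured and 0 passed in fh1-1, with SMIFH2 or between media. Their medians were -0.10, -0.08 and -0.03, and 1 of the 15 values was under an unadjusted p of 0.05 in limma, that of the upstream regulator SPK1 in fh1-1 (-0.38 ± 0.14, adjusted p = 0.088), named after its value was seen. In these 3 comparisons 33.1%, 27.4% and 18.5% of all genes were under that unadjusted p. Of 8 actins 2 were measured, and ACT11 rose by 0.71 ± 0.19 with SMIFH2 (adjusted p = 0.029), from a mean of 5.57 in the liquid control to 6.28. Wild type on solid medium stood at 6.34, and the liquid control, which both comparisons share, was lower than that by 0.77 (adjusted p = 0.045), a call lost in 12 of 16 alternatives, among them the omission of any 1 array. The SMIFH2 call was lost when liquid-control array 2 (0.12) or SMIFH2 array 2 (0.18) was left out, with only the 4 arrays compared (0.063) or with every probe set (0.072), and the alternatives spanned 0.010 to 0.18. Of 15 severing and capping genes 1 was measured, AT3G18060, which did not pass at -0.50 in fh1-1 (adjusted p = 0.076) and -0.31 with SMIFH2 (0.30).

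Of 17 bundling and crosslinking genes 9 were measured. In fh1-1, 3 rose and 2 fell (median 0.40), where 22.6% of all genes passed. With SMIFH2 1 rose and 2 fell (median -0.03), where 14.9% of all genes passed. The LIM-domain gene WLIM2a rose by 1.02 ± 0.15 in fh1-1 (adjusted p = 0.00084). Its relative WLIM2b, of the same family of actin bundlers, fell by 0.87 in fh1-1 (SE 0.14, adjusted p = 0.0018) and by 0.77 with SMIFH2 (SE 0.14, adjusted p = 0.0055). PLIM2b, also on the pollen list, fell by 0.81 in fh1-1 (adjusted p = 0.0033) and by 0.73 with SMIFH2 (SE 0.15, adjusted p = 0.0091, or 0.070 when SMIFH2 array 1 was left out). The remaining calls, named after their values were seen, were rises of AT5G55400 in fh1-1 (0.92) and with SMIFH2 (0.76), and of NET1A, which links actin to membranes, in fh1-1 (0.74). The SMIFH2 call of AT5G55400 was lost when any 1 of the 4 arrays compared was left out (adjusted p 0.050 to 0.080), and that of NET1A when fh1-1 array 2 was (0.071).

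**Figure D4:**
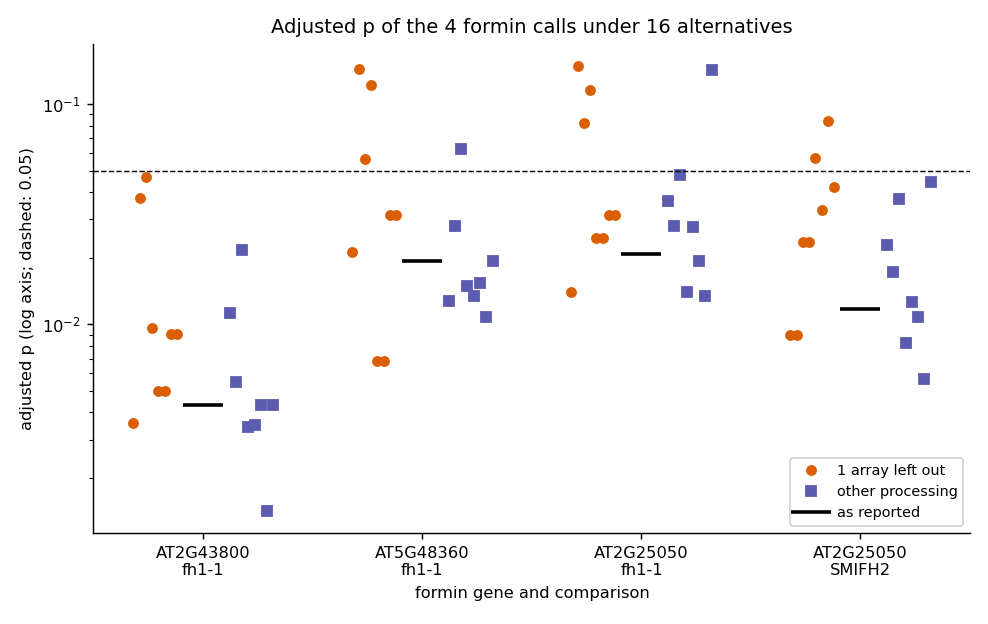
Adjusted p (vertical log axis, dashed line at 0.05) of the 4 formin calls as reported and under 16 alternatives, with fits that leave out 1 array as circles and other processing as squares. AT2G43800 in fh1-1 stays under 0.05 in all 16, at 0.0014 to 0.047, and the other calls cross it in 4, 4 and 2 of them.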

How the data were processed

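Total RNA of 8 seedling pools was measured on Affymetrix arrays; labelling and scanning were done by NASC, per the labels' protocols. The authors deposited log2 values made with RMA, which corrects background, normalizes arrays together and summarises probe sets, in Affymetrix Expression Console 1.4, per the submitters' processing notes. The raw arrays were not analysed here.

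Of 38408 probe sets, 17504 were listed in the platform annotation (array build not given in the sources used here); 758 with several genes were left out, and 20904 were not listed. The remaining 16746 gave 16554 genes, with the brightest probe set for each of 163 genes that had more than 1. Names came from RefSeq through Entrez IDs. Chromosomal neighbours were the protein-coding genes next before and after each locus by RefSeq start position. The number of arrays limits the precision.

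Group means were fitted with limma 3.58.1 in R 4.3.3 to all 8 arrays (4 residual and 5.81 prior degrees of freedom), with Benjamini-Hochberg adjustment over all genes and a threshold of 0.05. The fit was tested on simulated data. Figures used matplotlib 3.10.9 in Python 3.11.15. The members, gene lists and tests were chosen with earlier results of these data known. All 9 members are named; of the 5 actin lists, up to 2 members with the smallest adjusted p in the fh1-1 and the SMIFH2 comparison; and for each member called in fh1-1, the 3 genes with the highest correlation.

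Alternatives were cyclic loess or quantile normalization of the deposited values, a trended and robust variance prior, a test of all probe sets, averaging a gene's probe sets, dropping the third of genes lowest in mean, fitting 4 arrays alone, a block for the repeat number, and omission of each array in turn, which leaves 1 array in a group that is then assumed to vary like the others.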

Additional observations from a re-analysis of the deposited data

How the results depend on the processing

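The count of formin genes past the threshold in fh1-1 was 3, and 1 to 3 when 1 array was left out. With SMIFH2 it was 1, and 0 to 2 when 1 array was left out. For any difference among the 4 groups it was 3, with 1 over every probe set and 1 to 3 when 1 array was left out. It stayed at 0 in every alternative run for the medium, for SMIFH2 against fh1-1 and for the difference of effects. The count in fh1-1 was 2 with every probe set. With averaged probe sets it was 2 in fh1-1 and 2 for any difference. In each run without 1 array in which a count fell, a smaller share of all genes passed as well. Such a drop was thus not told apart from a general loss of power. Repeat numbers did not pair the arrays (correlations of deviations between groups from -0.06 to 0.01). With the repeat number as a block the counts were 3 in fh1-1, 1 with SMIFH2 and 2 for any difference. In the 5 comparisons of the design, 701 differences of single members were recomputed. Of these, 652 kept their direction and side of the threshold, 10 missed it and 1 passed newly. Only the 4 formin calls, each with 16 alternatives, could miss it, so the 10 are not a share of the 701. In 38 of the 701 the sign changed, in none of which the value was past the threshold. Of 64 more, for calls of SMIFH2 against wild type on solid medium and of fh1-1 against the liquid control, 13 missed the threshold. The 2 genes with all or most arrays below the 25th percentile, AT1G42980 and AT3G32400, were not tested when genes of low mean were left out. The alternatives for genes other than the 9 were run after the data were seen. With 2 pools per group, changes smaller than about the intervals given were not resolved.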
